A study of Homo sapiens with 3 samples.

Results

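CCN1, CCN2, ANKRD1, AMOT, AMOTL1, AMOTL2, LATS2, TEAD1 and TEAD4, a set of genes of the Hippo-YAP pathway, were taken by symbol from the 36601 genes of the count tables, and all 9 were present. RNA molecules of these genes were counted per cell in cultures of UCLA1 (a human embryonic stem cell line in established use) at day 1, day 2 and day 3 of what the labels call GiMO, with Geltrex, an extract of basement membrane, laid over the cells. Each day was represented by 1 library of polyA RNA on the 10x Genomics Chromium, made from cells of 1 line dissociated with trypsin, so day and library cannot be told apart and no difference has a replicate check or a p-value. The series title concerns the response to BMP4 and the induction of TFAP2A-positive cells, but the labels do not state whether or when BMP4 was added.

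In the Hippo pathway, the kinases LATS1 and LATS2 phosphorylate the coactivators YAP and TAZ and keep them out of the nucleus. When the kinases are low in activity, YAP and TAZ enter the nucleus and act through the DNA-binding factors TEAD1 to TEAD4. CCN1 and CCN2, which encode secreted matricellular proteins, and ANKRD1, which encodes an ankyrin repeat protein of nucleus and sarcomere, are widely used target genes. The angiomotins AMOT, AMOTL1 and AMOTL2 are junction proteins that bind YAP and promote its retention in the cytoplasm, and AMOTL2 and LATS2 are themselves known YAP target genes that act back on YAP. In the mouse blastocyst, TEAD4 with YAP specifies trophectoderm.

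On hg38 with the GENCODE 44 annotation, CCN1 (ENSG00000142871) lies at chr1:85580761-85584589, CCN2 (ENSG00000118523) at chr6:131948176-131951372 and ANKRD1 (ENSG00000148677) at chr10:90912096-90921087. AMOT (ENSG00000126016) lies at chrX:112774503-112840831, AMOTL1 (ENSG00000166025) at chr11:94706431-94876748 and AMOTL2 (ENSG00000114019) at chr3:134355347-134375479. LATS2 (ENSG00000150457) lies at chr13:20973036-21061586, TEAD1 (ENSG00000187079) at chr11:12674421-12944737 and TEAD4 (ENSG00000197905) at chr12:2959330-3040676.

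Promoter sequences are shown for 3 members that carry the main contrasts between days: CCN2 and ANKRD1, a pair of target genes that moved apart between days, and AMOT, whose level moved with ANKRD1. The RefSeq table on GRCh38.p14 held 6 of the 9 members, with 7 promoters. Each line gives the 250 bases before the gene's annotated start, 5′ to 3′ on the gene's strand, and capitals mark the TEAD core motif GGAATG or its reverse complement CATTCC. All 3 genes lie on the minus strand, at chr6:131951373-131951622 (CCN2), chr10:90921088-90921337 (ANKRD1) and chrX:112840832-112841081 (AMOT).
CCN2: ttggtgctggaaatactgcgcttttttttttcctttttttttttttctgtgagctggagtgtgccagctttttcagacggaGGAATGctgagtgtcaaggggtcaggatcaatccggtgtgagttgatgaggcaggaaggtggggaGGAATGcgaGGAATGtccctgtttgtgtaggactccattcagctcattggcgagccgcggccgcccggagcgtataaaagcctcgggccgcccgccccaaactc
ANKRD1: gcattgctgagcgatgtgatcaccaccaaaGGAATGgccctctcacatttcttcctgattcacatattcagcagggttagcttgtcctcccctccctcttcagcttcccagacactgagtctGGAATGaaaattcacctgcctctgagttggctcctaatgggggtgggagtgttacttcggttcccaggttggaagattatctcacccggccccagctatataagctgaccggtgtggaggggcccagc
AMOT: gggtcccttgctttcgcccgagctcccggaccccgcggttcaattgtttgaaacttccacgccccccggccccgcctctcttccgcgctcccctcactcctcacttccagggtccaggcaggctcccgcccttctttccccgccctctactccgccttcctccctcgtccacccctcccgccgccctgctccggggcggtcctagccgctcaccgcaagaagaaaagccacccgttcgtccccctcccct
CCN2 held 3 matches, beginning 169, 104 and 95 bases before the start, and ANKRD1 held 2, at 220 and 128 bases. AMOTL2 held 1 match in one of its 2 promoters, 69 bases before that start, whereas AMOTL1, LATS2 and AMOT held 0. Of all 35116 promoters of this length in the table, 4175 (11.9%) held the motif on either strand. A match describes letters in this window and was not tested as a binding site.

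The kept cells numbered 3533, 7224 and 6804 at days 1, 2 and 3, with 165813128, 119744389 and 137684818 unique molecular identifiers (UMIs, 1 per captured RNA molecule). Levels are UMIs in 1000000 (CPM), summed over the cells of a library or class, with exact 95% Poisson intervals. A ratio carries an exact 95% conditional binomial interval, and both cover counting error only. Both treat UMIs as independent, so they are too narrow where a gene's UMIs lie together in few cells, as for ANKRD1 (below). A gene was called higher or lower at a ratio of at least 1.5 in either direction with an interval that excludes 1 and at least 2 CPM in either group. Counts were not divided by gene length, so each gene is compared with itself across days and cells. Libraries shared 5, 7 and 10 kept barcodes between days 1 and 2, days 1 and 3, and days 2 and 3.

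Over the 3 days the target genes moved in opposite directions. ANKRD1 was higher on each later day, while CCN1 and CCN2 were not called different at day 2 and were lower at day 3. ANKRD1 levels on days 1, 2 and 3 were 2.67 CPM (2.42 to 2.93), 6.83 CPM (6.37 to 7.32) and 36.9 CPM (35.9 to 37.9). The day 3 library was therefore 13.8-fold above day 1 (12.6 to 15.3) and 5.40-fold above day 2 (5.01 to 5.82). CCN1 had 26.1 CPM (25.3 to 26.9), 22.1 (21.3 to 23.0) and 8.20 (7.73 to 8.69) on the same days. CCN2 had 23.0 CPM (22.2 to 23.7), 24.3 (23.4 to 25.2) and 8.47 (7.99 to 8.97). At day 3, CCN1 was 3.18-fold (2.98 to 3.40) and CCN2 2.71-fold (2.54 to 2.90) lower than at day 1. Between days 1 and 2 the CCN1 ratio of 0.849 was 0.678 with TMM scaling, so its size depends on the scaling, and neither was called. The CCN2 ratio of 1.06 turned to 0.846 with TMM scaling, so its direction between these days depends on the scaling. Within a library, where no scaling enters, UMIs of ANKRD1 per UMI of CCN1 were 0.102 at day 1, 0.308 at day 2 and 4.50 at day 3, while CCN1 per CCN2 was 1.14, 0.911 and 0.968.

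All 3 angiomotins were higher at day 3 than at day 1, but at different times. AMOT, the founding member, had 1.83 CPM (1.63 to 2.05), 4.51 CPM (4.14 to 4.91) and 17.0 CPM (16.3 to 17.7) on days 1, 2 and 3. Its day 3 level was 9.28-fold that of day 1 (8.23 to 10.5). AMOTL1 had 42.9 CPM (41.9 to 43.9), 68.8 (67.4 to 70.3) and 163.9 (161.8 to 166.0), with a day 3 over day 1 ratio of 3.82. Its day 2 over day 1 ratio of 1.60 was 1.28 with TMM scaling, which was not called. AMOTL2 had 16.3 CPM (15.7 to 17.0), 44.3 (43.1 to 45.5) and 49.6 (48.5 to 50.8). Its 2.71-fold difference (2.58 to 2.84) was thus between days 1 and 2, and the day 3 over day 2 ratio of 1.12 was not called. UMIs of AMOT per UMI of AMOTL2 were 0.112, 0.102 and 0.343 on days 1, 2 and 3.

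LATS2, the kinase, had 21.7 CPM (21.0 to 22.4), 33.3 (32.3 to 34.4) and 39.7 (38.6 to 40.7). It was called higher at day 2 (1.53-fold) and day 3 (1.83-fold) against day 1, and neither call was kept with TMM scaling, at 1.23-fold and 1.48-fold. Its antisense gene LATS2-AS1 had 1.17, 2.02 and 1.70 CPM. No source used here states whether strand was used in counting, and how reads were assigned where the 2 genes overlap was not checked. The TEAD factors moved apart: TEAD1 had 124.9 CPM (123.2 to 126.7), 183.3 (180.9 to 185.8) and 456.4 (452.9 to 460.0), while TEAD4 had 108.8 CPM (107.2 to 110.4), 80.5 (78.9 to 82.2) and 62.4 (61.1 to 63.7). At day 3, TEAD1 was 3.65-fold higher than at day 1 (3.60 to 3.71) and TEAD4 1.74-fold lower (1.70 to 1.79). UMIs of TEAD1 per UMI of TEAD4 were 1.15 at day 1, 2.28 at day 2 and 7.32 at day 3.

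**Figure D1:**
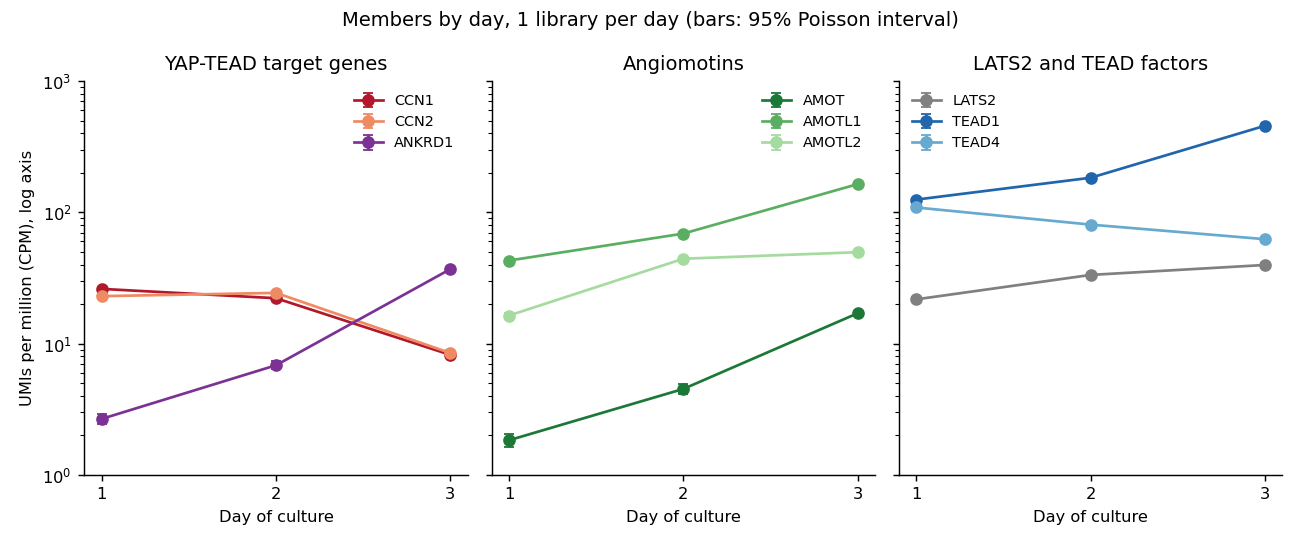
Summed CPM (log axis) of the 9 genes against day of culture, 1 library per day, with 95% Poisson intervals that are mostly smaller than the points. ANKRD1 lies higher on each later day, CCN1 and CCN2 lie lower at day 3, all 3 angiomotin lines end above their day 1 level, and TEAD1 and TEAD4 diverge.

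By these calls, 6 of the 9 members were higher at day 3 than at day 1 and 3 were lower, where 32.2% and 17.9% of the 14587 genes tested were higher and lower. At day 2 against day 1, 5 were higher and 0 lower, against 21.4% and 5.67% of 14240 genes. With TMM scaling 3 were higher and 1, TEAD4, lower, and those shares, made without it, are not a background for these counts. At day 3 against day 2, 4 were higher and 2 lower, against 14.1% and 16.7% of 14668 genes. The members' median log2 ratio at day 3 over day 1 was 1.60, beside 0.25 for all genes tested. TMM scaling moved the median gene to -0.06, and the members' median to 1.29.

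To compare cells at 1 depth, 5000 UMIs were drawn from every cell, and the share of cells in which a member was seen moved in the same direction as its CPM between days 1 and 3. ANKRD1 was seen in 0.886%, 1.59% and 6.47% of the 3499, 6742 and 6675 thinned cells of days 1, 2 and 3. AMOT was seen in 0.829%, 1.84% and 6.14%, and AMOTL1 in 18.8%, 28.0% and 49.7%. TEAD1 was seen in 44.3%, 55.4% and 80.3%, and TEAD4 in 40.0%, 32.4% and 25.5%. ANKRD1 UMIs lay in few cells: at day 3 its positive cells had 3.02 UMIs each, up to 31 in 1 cell, and 83.4% of its UMIs were in the 215 cells with 2 or more. That share depends on the level, and among members it ran from 12.7% for CCN2 to 89.1% for TEAD1. LATS2, with 1326 UMIs in the thinned cells against 1305 for ANKRD1, had 23.6%, and AMOT, with 582, had 49.5%.

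The lists of Hippo kinases and scaffolds and of YAP, TAZ, TEAD factors and cofactors had smaller ratios at the median than the members. This does not set regulators against targets, because LATS2, TEAD1 and TEAD4 are both members and in these lists. The target genes CCN1 and CCN2 had ratios below both list medians. Among 13 Hippo kinases and scaffolds, the day 3 over day 1 ratio was called higher for 7 and lower for 1. Its median log2 was 0.64 (0.33 with TMM scaling). TMM scaling lowers each ratio between these days, and LATS2, among the 7, went from 1.83 to 1.48 and was not called. The calls of this list were made without TMM scaling, so fewer than 7 may hold with it. Beside this list and the next, 32.2% of all 14587 genes tested were higher and 17.9% lower. FRMD6, an upstream scaffold, was 2.39-fold, MOB1B, a LATS cofactor, 2.06-fold and STK3 (MST2), the kinase that activates LATS, 1.99-fold higher. WWC1 (KIBRA), a scaffold that activates LATS, was 2.31-fold lower, and the next lowest ratios, 1.18 for STK4 and 1.22 for PTPN14, were not called. Among YAP, TAZ, TEAD factors and cofactors, 4 of 8 were higher and 2 lower, with a median log2 of 0.59 (0.28 with TMM scaling). The highest were TEAD1 (above), TEAD3 at 2.30-fold and YAP1 at 1.69-fold, and WWTR1, which encodes TAZ, was 1.54-fold higher. These calls too were made without TMM scaling, and whether those of YAP1 and WWTR1 hold with it was not tested. The lowest were VGLL3, a TEAD cofactor, 2.38-fold lower, TEAD4 (above), and VGLL4, whose ratio of 0.837 was not called. YAP1 had 80.3, 129.3 and 135.5 CPM on days 1, 2 and 3, and WWTR1 had 49.0, 65.5 and 75.5 CPM.

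Other genes known as YAP-TEAD targets in other cell types also went both ways. Of 21 listed, 18 were at the level tested, and 10 of these were higher and 3 lower at day 3 than at day 1. Their median log2 was 0.81 (0.50 with TMM scaling). For this list and those below, calls were made without TMM scaling, and the share over all genes tested was 32.2% higher and 17.9% lower. FOXF2, a forkhead factor, was 9.52-fold, GLIS3, a zinc finger factor, 5.35-fold, and ARHGEF17, a guanine nucleotide exchange factor, 4.59-fold higher. The receptor gene AXL was 3.21-fold, FJX1 2.17-fold and DOCK5, also an exchange factor, 1.77-fold lower. CCN1 and CCN2 are also targets of serum response factor and of TGF-beta in other cells, so lists of both are set beside them. Of 9 SRF and actin genes, 2 were higher (SRF 2.96-fold and CNN1, calponin, 2.54-fold) and 4 lower, with the third highest, VCL, not called at 0.931. TAGLN, which encodes transgelin, was 5.94-fold, the tropomyosin gene TPM1 3.08-fold and ACTG2 2.16-fold lower, and the list summed to 2175, 1129 and 903 CPM on days 1, 2 and 3. Of 4 TGF-beta and NODAL targets 0 were higher and 3 lower, namely LEFTY1 (a NODAL antagonist, 10.4-fold), LEFTY2 (2.02-fold) and SMAD7 (1.65-fold), and SKIL had a ratio of 0.724. Of 10 immediate early and dissociation genes 6 were higher, led by JUNB (3.90-fold), HSPA1B (2.78-fold) and ATF3 (2.25-fold). In that list IER2 was 2.64-fold lower, EGR1 (1.06) and FOS (1.19) were not called, and the summed level was 312, 370 and 364 CPM on days 1, 2 and 3. Without cells that had a FOS, EGR1 or ATF3 UMI, CCN1 had a day 3 over day 1 ratio of 0.287 and CCN2 of 0.396. The part of these genes in the members' differences was not tested.

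**Figure D2:**
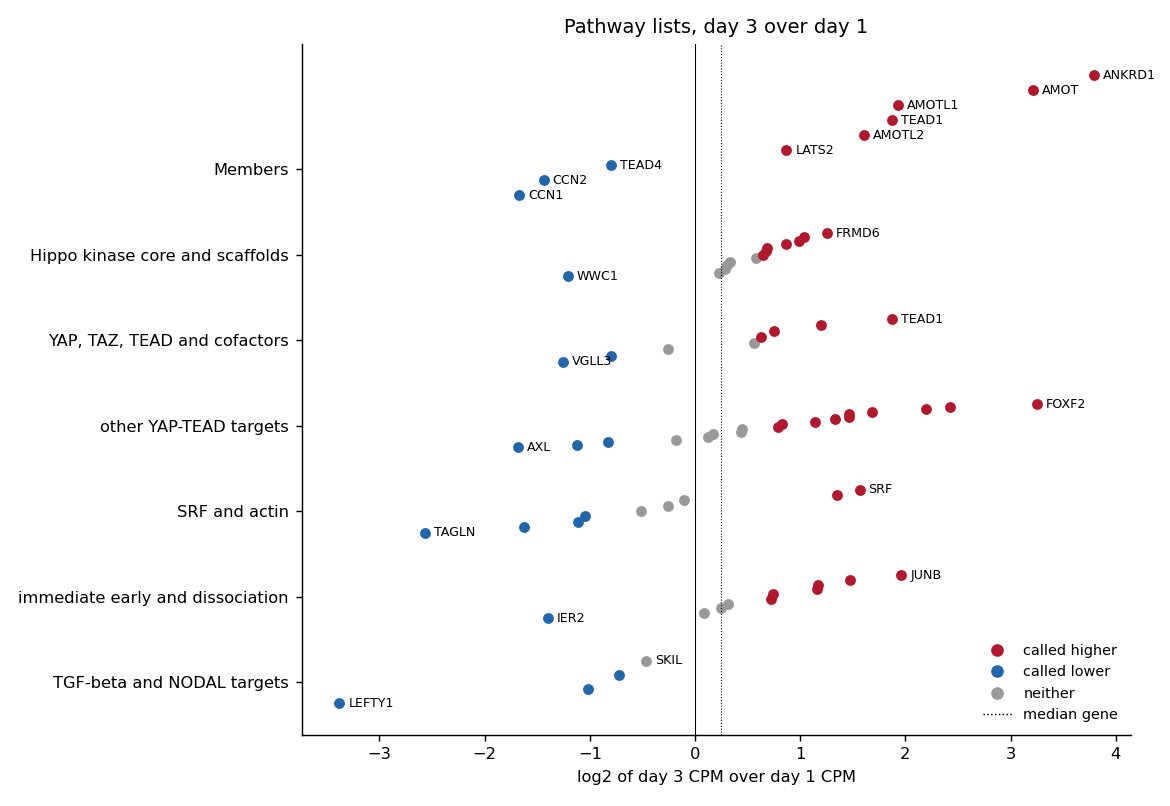
Log2 of day 3 over day 1 CPM for the 9 genes and for 6 lists, 1 point per gene, red where called higher, blue where called lower and grey where neither. The dotted line is the median of all genes tested (0.25), and ANKRD1 (13.8-fold), FOXF2 (9.52-fold) and AMOT (9.28-fold) lie furthest right, while LEFTY1 (10.4-fold lower) lies furthest left.

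HAND1, a transcription factor of lateral and extraembryonic mesoderm that amnion also expresses, marked 52, 462 and 4646 thinned cells at days 1, 2 and 3 (1 UMI or more). At day 3 HAND1-positive cells had more AMOT, AMOTL1 and ANKRD1 and less CCN2 than HAND1-negative cells of the same library. AMOT had 21.0 CPM in HAND1-positive and 9.27 in HAND1-negative cells, a ratio of 2.27 (1.81 to 2.86). AMOTL1 had 181.7 and 112.2 CPM in HAND1-positive and HAND1-negative cells, a ratio of 1.62 (1.52 to 1.73), and among cells with no LHX1 UMI its call was lost (1.497). CCN2 had 6.67 CPM in HAND1-positive and 13.4 in HAND1-negative cells, a ratio of 0.498 (0.393 to 0.631). ANKRD1 had 44.7 CPM in HAND1-positive and 26.3 in HAND1-negative cells, a ratio of 1.70 (1.48 to 1.95). That ratio was 1.24 with a second random draw, 1.29 at a depth of 10000 UMIs and 1.87 with all UMIs of the same cells, so its size, and its call, depend on the draw. CCN1, at 8.61 CPM in HAND1-positive and 8.77 in HAND1-negative cells, was not called (0.981). It was called lower (0.643) at 10000 UMIs and higher (1.57) among cells with no LHX1 UMI, so its direction depends on these choices. TEAD1 had 490.6 CPM in HAND1-positive and 338.6 in HAND1-negative cells, a ratio of 1.45, and was called higher with all UMIs (1.55). AMOTL2, LATS2 and TEAD4 had ratios of 0.802, 0.904 and 0.883 and were not called. Of all 14482 genes tested in this contrast, 5.39% were higher and 13.9% lower, beside 3 and 1 of the 9 members. Other markers moved with HAND1 at day 3: amnion genes summed to 129.9 CPM in HAND1-positive and 66.4 CPM in HAND1-negative cells. Lateral or extraembryonic mesoderm genes other than HAND1 summed to 820.8 and 424.8 CPM, with HAND2, FOXF1, BMP4 and ISL1 higher. Mesoderm genes other than HAND1 summed to 1559 and 1015 CPM, with LHX1, FOXF1 and APLNR higher and MSGN1 lower. Streak genes summed to 492.6 and 756.3 CPM, and pluripotency genes to 289.5 and 677.0 CPM. The part of these marker genes in the members' differences was not tested.

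At day 2, when fewer cells had HAND1, AMOT and ANKRD1 had larger ratios. AMOT had 18.6 CPM in HAND1-positive and 3.31 in HAND1-negative cells (5.62-fold, 3.84 to 8.09), and ANKRD1 20.8 and 5.76 CPM in those cells (3.61-fold, 2.57 to 4.98). AMOTL1 had 119.0 CPM in HAND1-positive and 67.5 in HAND1-negative cells, a ratio of 1.76, and its call was lost without thinning (1.44). CCN1 (13.4 CPM in HAND1-positive and 22.0 in HAND1-negative cells) and CCN2 (10.8 and 24.5 CPM) were lower, and the 2 CCN calls were not kept among MESP1-positive cells, at 0.668 and 0.774. The CCN1 call was also lost with a second draw (0.667) and with levels from all UMIs (0.669). It was lost too without SOX2-positive cells (0.673) and among cells with no LHX1 UMI (0.727), and the CCN2 call was lost without thinning (0.726). Without cells that had a TFAP2A or ISL1 UMI, the day 2 ratio of ANKRD1 was 1.65, which was not called, and that of AMOT was 3.43 (1.94 to 5.76). With at least 2 HAND1 UMIs ANKRD1 was 6.71-fold and AMOT 8.34-fold higher, and among MESP1-positive cells ANKRD1 was 5.74-fold higher (2.62 to 13.1). Here 6.86% of all genes were higher and 7.73% lower, beside 3 and 2 members. The difference in ratio between the days was not tested. Amnion genes summed to 123.4 CPM in HAND1-positive and 44.6 CPM in HAND1-negative cells at day 2, and mesoderm genes other than HAND1 to 737.7 and 128.1 CPM. At day 1, with 52 HAND1-positive cells, 12 ANKRD1 UMIs in 5 cells gave 46.2 CPM, against 2.32 CPM in HAND1-negative cells. That was 1 member higher and 0 lower, where 2.4% and 2.04% of genes were.

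By number of HAND1 UMIs per cell, AMOT, AMOTL1, ANKRD1 and TEAD1 had higher values in each next bin at day 3. CCN2, AMOTL2 and TEAD4 had lower values in each next bin. AMOT had 9.27, 15.2, 21.9 and 24.1 CPM in cells with 0, 1, 2 to 3 and 4 or more HAND1 UMIs, and AMOTL1 had 112.2, 156.3, 187.1 and 193.7 CPM. CCN2 had 13.4, 11.0, 5.59 and 4.80 CPM in the same bins. The intervals of the upper pair of bins overlapped for AMOT, AMOTL1 and CCN2. For CCN2 those of 0 UMIs (11.2 to 15.9) and 1 UMI (8.49 to 14.0) overlapped as well, and those of 1 UMI and of 2 to 3 UMIs did not. TEAD1 had 338.6, 438.2, 486.4 and 531.1 CPM, with no overlap of intervals. ANKRD1 had 26.3, 39.4, 40.7 and 52.4 CPM, and its intervals of 1 UMI and of 2 to 3 UMIs overlapped. From the lowest to the highest bin AMOTL2 went from 56.6 to 41.1 CPM and TEAD4 from 66.4 to 55.4 CPM, with overlap between all neighbouring bins. CCN1 had 8.77, 7.28, 9.46 and 8.66 CPM, with no steady order, and LATS2 (42.6, 42.0, 36.9 and 37.7 CPM) had none either.

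**Figure D3:**
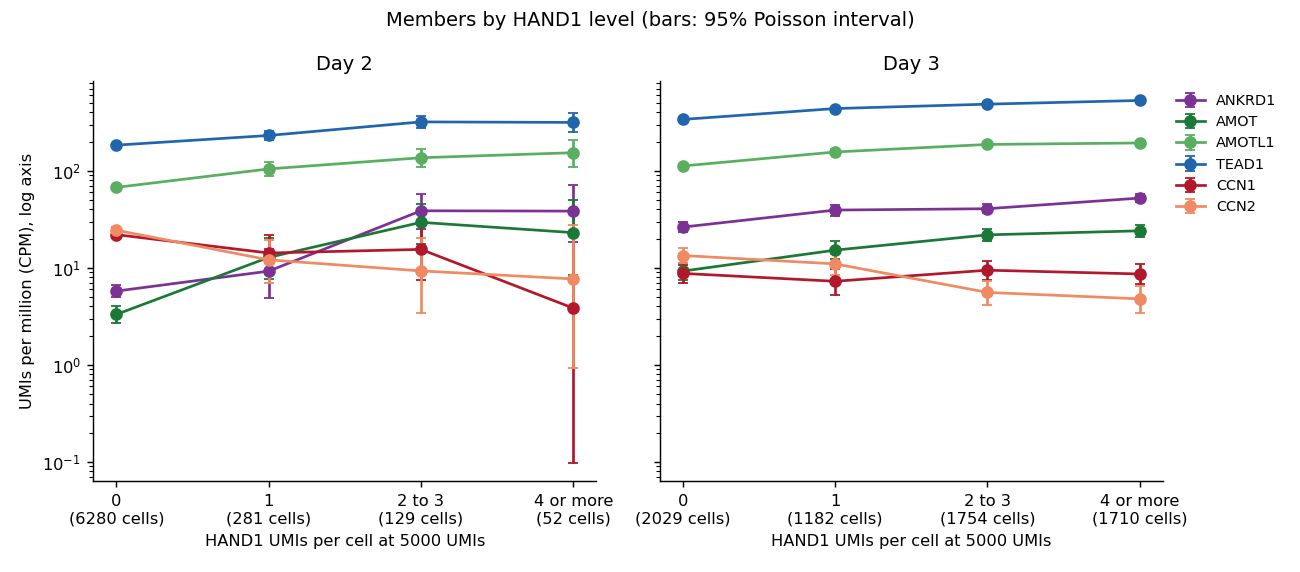
CPM (log axis) of 6 members in cells with 0, 1, 2 to 3 and 4 or more HAND1 UMIs at days 2 and 3, with 95% Poisson intervals and cell numbers below each bin. AMOT, AMOTL1, ANKRD1 and TEAD1 lie higher to the right at day 3 and CCN2 lower. At day 2 the bin of 4 or more holds 52 cells with wide intervals.

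HAND1-positive cells were not alike. LHX1, a homeobox factor of streak and early mesoderm, divided them at day 3 into 1364 cells with HAND1 and no LHX1 UMI and 3282 cells with both. In the cells with HAND1 alone, ANKRD1 had 123.3 CPM (115.1 to 131.9), against 12.0 (10.4 to 13.8) in the cells with both, a 10.3-fold difference (8.79 to 12.1). AMOT had 58.7 CPM (53.0 to 64.7) in the cells with HAND1 alone and 5.36 (4.30 to 6.61) in those with both, 10.9-fold (8.66 to 13.9). CCN1 was 5.36-fold higher (3.94 to 7.35), at 20.2 and 3.78 CPM in the cells with HAND1 alone and with both, and CCN2 was 1.98-fold higher (1.42 to 2.75). AMOTL1 went the other way, at 115.1 CPM with HAND1 alone and 209.4 CPM with both, 1.82-fold lower. HAND1 itself had 726.0 CPM in the cells with HAND1 alone and 623.9 in those with both. Thus 4 members were higher and 1 lower in this split, where 11.5% and 6.69% of 14266 genes were. Over 6 alternatives the ratio lay between 9.18 and 17.2 for ANKRD1 and between 10.2 and 24.8 for AMOT.

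Against the 986 cells with LHX1 alone, the cells with HAND1 alone had 8.44-fold more ANKRD1 (6.63 to 10.9), 17.0-fold more AMOT (10.5 to 29.5) and 4.53-fold more CCN1 (2.88 to 7.47). The calls were kept under 6 alternatives, but sizes moved: CCN1 was 2.44-fold (1.79 to 3.39) at 10000 UMIs and 6.83-fold with at least 2 UMIs of each marker, and AMOT was 26.7-fold with a second draw and 28.3-fold with at least 2 UMIs. ANKRD1 had 14.6, AMOT 3.45 and CCN1 4.46 CPM in the cells with LHX1 alone. CCN2, AMOTL1, AMOTL2, LATS2, TEAD1 and TEAD4 were not called in this contrast, with ratios between 0.770 and 1.38. Thus 3 members were higher and 0 lower, where 7.9% and 10.1% of 14689 genes were. YAP1 (143.4 CPM with HAND1 alone and 140.4 with LHX1 alone) and WWTR1 (67.9 and 80.9 CPM) were not called, nor were 12 of 13 Hippo kinases and scaffolds, with TAOK3 lower. Of 18 other YAP-TEAD targets at the level tested, 11 were higher and 2, F3 and GLIS3, lower. The 1043 cells with neither marker lay between, at 37.4 CPM of ANKRD1, 14.8 of AMOT and 12.8 of CCN1.

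Amnion markers, and 4 of 6 lateral or extraembryonic mesoderm genes, moved with these members. All 9 listed amnion genes other than HAND1 were higher in the cells with HAND1 alone than in those with LHX1 alone, with a summed level of 241.9 against 51.9 CPM. Primitive streak genes summed to 242.5 CPM with HAND1 alone and 875.3 with LHX1 alone, with 4 of 5 lower. Mesoderm genes other than HAND1 and LHX1 summed to 522.1 and 837.5 CPM, with 3 of 6 lower. Lateral or extraembryonic mesoderm genes other than HAND1 summed to 662.6 and 643.8 CPM. Of these HAND2, BMP4, COL3A1 and ISL1, also an amnion marker here, were higher and GATA6 lower. MESP1 was seen in 51.2% of the cells with HAND1 alone and 70.7% of those with LHX1 alone. All 4 definitive endoderm genes were lower with HAND1 alone, at a summed level of 12.8 CPM against 65.7 CPM. The 3 trophoblast genes at the level tested, GATA2, GATA3 and TEAD3, were higher, and CGB5, GCM1, ELF5 and XAGE2 had 0 UMIs in either class. SRF and actin genes summed to 1375 and 790 CPM with HAND1 alone and LHX1 alone, with ACTA2, CNN1, MYL9 and TPM1 higher and 0 of 9 lower. Immediate early and dissociation genes summed to 302 and 405 CPM, with JUN and ATF3 higher and FOS and IER3 lower. Leaving out every cell with a TFAP2A or ISL1 UMI, the ratio of HAND1 alone over LHX1 alone was 8.65 for ANKRD1, 11.8 for AMOT and 4.17 for CCN1. Median depths before thinning were 19201.5 UMIs with HAND1 alone and 18976.5 with LHX1 alone.

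**Figure D4:**
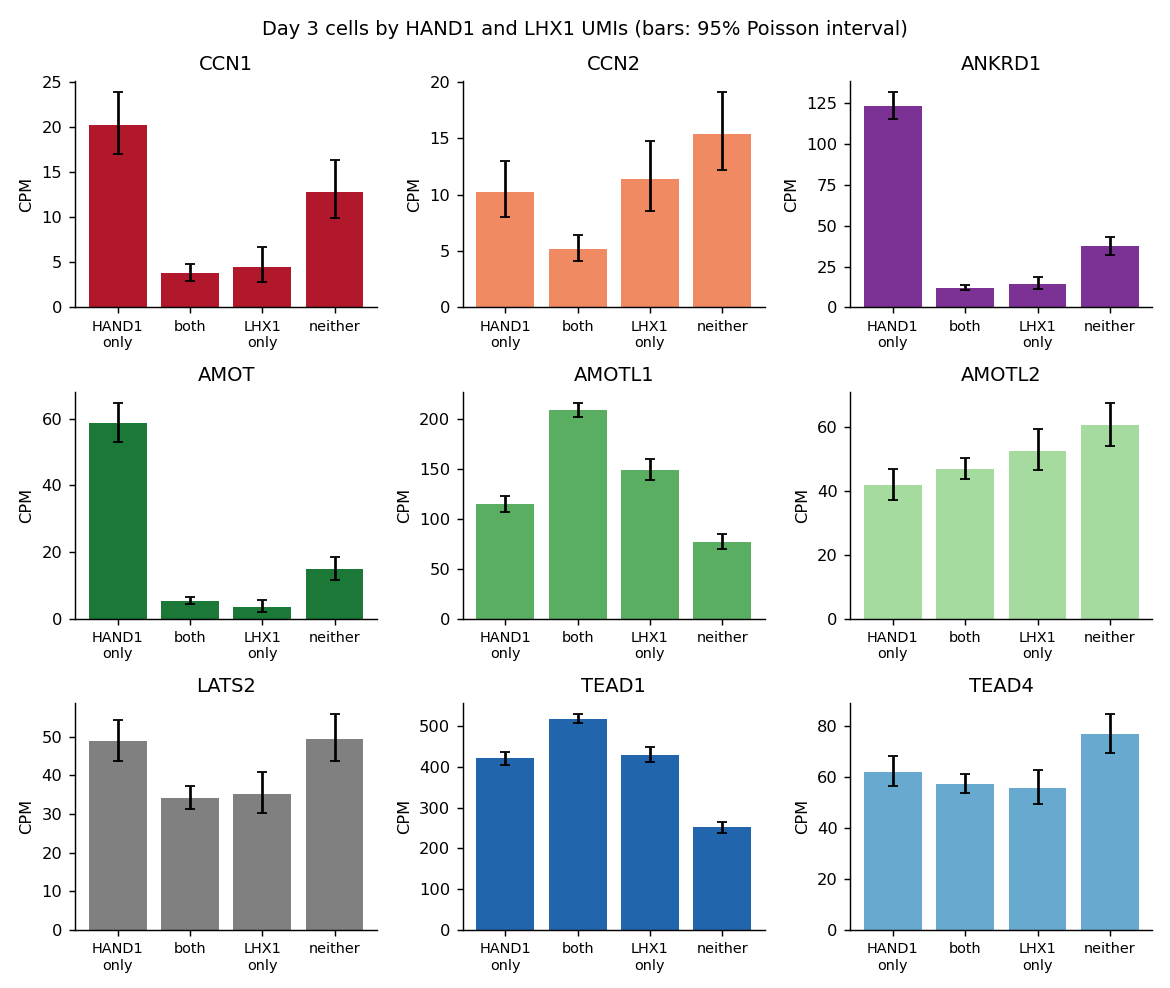
CPM of each of the 9 genes at day 3 in cells with HAND1 alone (1364), both HAND1 and LHX1 (3282), LHX1 alone (986) and neither (1043), with 95% Poisson intervals. ANKRD1, AMOT and CCN1 are highest with HAND1 alone, AMOTL1 and TEAD1 with both, and CCN2, AMOTL2 and TEAD4 with neither marker.

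Among the cells with HAND1 alone, 395 had a TFAP2A or ISL1 UMI. AMOT had 101.3 CPM in these and 41.3 in the other 969 (2.45-fold, 2.01 to 3.00), and CCN1 27.3 and 17.3 CPM in cells with and without them (1.58-fold). ANKRD1, at 146.8 CPM in cells with and 113.7 in cells without TFAP2A or ISL1, had a ratio of 1.29 and was not called. With 2 members higher and 0 lower, the background was 4.6% and 2.75% of genes. Split by GATA3, a factor of amnion and trophoblast, 372 of the cells with HAND1 alone had 86.6 CPM of AMOT, against 48.2 in the other 992 (1.80-fold), and CCN1 was 1.88-fold higher. Here too 2 members were higher and 0 lower, where 2.92% and 1.6% of genes were.

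Single markers gave a like picture at day 3. In the 216 cells with TFAP2A, an early amnion and surface ectoderm factor, AMOT had 76.9 CPM, against 15.5 in TFAP2A-negative cells, ANKRD1 113.9 against 36.6, CCN1 24.1 against 8.14 and LATS2 62.0 against 39.0. TEAD1 was lower there, at 295.4 CPM against 449.4. These made 4 members higher and 1 lower, where 9.15% and 6.02% of genes were. At day 1, AMOTL1 and AMOTL2 were higher and CCN1 and CCN2 lower in TFAP2A-positive cells, where 3.62% and 1.16% of genes were, and at day 2 AMOT was higher and CCN2 lower, where 2.45% and 2.37% were. At day 3 mesoderm markers were lower in the TFAP2A-positive cells (6 of 8) and amnion markers other than TFAP2A higher (8 of 9). In the 803 cells with ISL1, AMOT had 59.0 CPM, against 11.8 in ISL1-negative cells (5.02-fold), and 3 members were higher and 0 lower, beside 5.83% and 4.78% of genes. LHX1-positive cells had less AMOT (4.92 CPM, against 39.6 in LHX1-negative cells), ANKRD1 (12.6 against 86.1), CCN1 (3.94 against 17.0) and CCN2 (6.61 against 12.5), and more AMOTL1 (1.98-fold). That made 1 member higher and 4 lower, where 6.31% and 14.0% of genes were.

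In the 1352 GATA3-positive cells AMOT (2.52-fold), ANKRD1 (2.02-fold) and CCN1 (1.78-fold) were higher and CCN2 lower (0.646), where 2.79% and 2.77% of genes were. In the 4102 cells with MIXL1, a streak factor, AMOT, ANKRD1 and CCN1 were lower, at ratios of 0.118, 0.186 and 0.302, and 0 members were higher, where 7.82% and 4.87% of genes were lower and higher. In the 4214 cells with MESP1, an early mesoderm factor, the same 3 members were lower, at 0.498, 0.596 and 0.484, where 10.5% of genes were lower and 2.11% higher. In the 1395 cells with TBXT (brachyury), AMOT and ANKRD1 were lower, at 0.443 and 0.480, where 4.29% of genes were lower and 4.18% higher. The 221 cells with SOX17, a factor of endoderm and endothelium, had more AMOTL2 (1.59-fold) and less CCN1 (0.306, from 3 UMIs), where 10.4% and 7.26% of genes were higher and lower. At day 2, the 191 ISL1-positive cells already had more AMOT (31.4 CPM, against 3.57 in ISL1-negative cells), ANKRD1 (29.3 against 6.14) and AMOTL1 (105.8 against 70.0). CCN2 and TEAD4 were lower in them, so 3 members were higher and 2 lower, where 5.7% and 3.95% of genes were.

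CCN2 had a different distribution. In the 133 SOX2-positive cells at day 3, where SOX2 is a pluripotency factor, CCN2 had 31.6 CPM, against 8.25 in SOX2-negative cells (3.83-fold, 2.33 to 5.97, from 21 UMIs), and TEAD4 had 105.3 against 60.1 CPM (1.75-fold). ANKRD1 had 3.01 CPM there (2 UMIs), against 39.8, and AMOTL1, AMOTL2 and TEAD1 were also lower, so 2 members were higher and 4 lower, beside 12.2% and 6.88% of genes. At day 2 CCN1 had 31.4 CPM in SOX2-positive and 17.9 in SOX2-negative cells (1.75-fold), and CCN2 30.0 and 21.3 CPM (1.41-fold, not called). With ANKRD1 (0.519) and AMOTL2 (0.636) lower there, 1 member was higher and 2 lower, where 3.24% and 5.66% of genes were. As a comparison for shares of positive cells, HAND1 was seen in 17.3% of SOX2-positive cells at day 3, at a median depth of 20404 UMIs, against 69.6% of all cells. Whether these UMIs came from free RNA, remaining doublets or the cells themselves was not tested. ANKRD1 was seen in 2 of 133 SOX2-positive cells (exact 95% interval of the share 0.183% to 5.33%), against 7.28% of HAND1-positive and 18.1% of TFAP2A-positive cells.

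**Figure D5:**
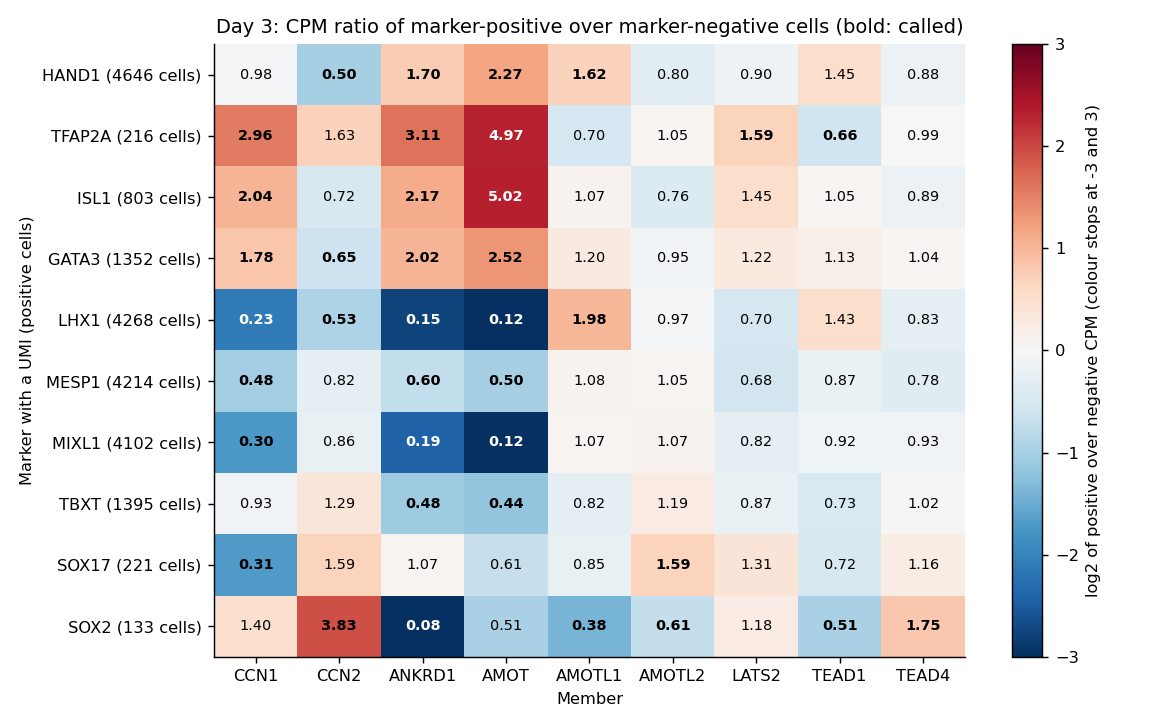
Ratio of CPM in marker-positive over marker-negative cells at day 3, by marker (rows, with the number of positive cells) and member (columns), coloured by log2 ratio and bold where called. ANKRD1, AMOT and CCN1 are above 1.5 for TFAP2A, ISL1 and GATA3 and 0.302 or lower for LHX1 and MIXL1, and CCN2 reaches 3.83 for SOX2.

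CCN1 and AMOT were higher in cells with an ANKRD1 UMI than in cells without one. In the 432 ANKRD1-positive cells of day 3, a class chosen after its values were seen, CCN1 was seen in 20.4%, against 2.77% of ANKRD1-negative cells, and its level was 8.62-fold higher (6.73 to 11.0). AMOT had 74.1 CPM in ANKRD1-positive and 13.5 in ANKRD1-negative cells (5.48-fold, 4.54 to 6.59), CCN2 21.3 and 7.85 CPM (2.71-fold) and LATS2 58.3 and 38.4 CPM (1.52-fold). AMOTL1 was lower in ANKRD1-positive cells, at 96.8 against 165.0 CPM. Of the 8 members other than ANKRD1, 4 were higher and 1 lower, beside 7.49% and 6.59% of genes. Of these ANKRD1-positive cells 78.2% had a HAND1 UMI, against 69.0% of ANKRD1-negative cells, and 25.5% an LHX1 UMI, against 66.6%. Other lists moved with ANKRD1: amnion markers were higher for 8 of 10 (866.2 CPM in ANKRD1-positive and 544.9 in ANKRD1-negative cells). These sums include HAND1, which was not called and held 448.6 of the list's 556.7 CPM in the whole day 3 library. SRF and actin genes were higher for 5 of 8 (1807 and 842 CPM), and streak genes lower for 4 of 5 (203.2 and 598.4 CPM). Among 10 immediate early and dissociation genes, JUN, ATF3 and DUSP1 were higher and IER3 and HSPA1A lower. The part of these lists in the levels of CCN1, CCN2 and AMOT was not tested.

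Over 14 classes of cells that do not overlap (HAND1, else MESP1, else TBXT, else SOX2, else none of these, by day), the genes with the most similar profile were found among 11840 genes by Pearson correlation of log2(CPM + 1), and the 3 closest are given for each member. The classes share libraries, so the values are descriptions. For ANKRD1 they were HUNK (r = 0.91), PITX1 (0.91) and TRAM2 (0.90), and for AMOT they were LOXL2 (0.93), DOK4 (0.93) and LPGAT1 (0.92). For CCN1 they were the mitochondrial genes MT-CO2 (0.90) and MT-ND4 (0.89) and PCLO (0.89), and for CCN2 they were TMEM132B (0.96), ELAVL2 (0.95) and POLR3G (0.95). For AMOTL1 they were P3H2 (0.98), NR0B1 (0.97) and SETBP1 (0.97), for AMOTL2 FLRT2 (0.97), AC108052.1 (0.96) and AC007402.1 (0.96), and for LATS2 TUT4 (0.96), EXO1 (0.96) and AP001347.1 (0.95). For TEAD1 they were SCMH1 (0.98), LINC02144 (0.98) and KCP (0.97), and for TEAD4 AC234582.1 (0.95), GPM6B (0.94) and HELLS (0.94).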

How the data were processed

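The authors deposited UMI counts per gene and cell barcode for 3 libraries, 1 per day. Per the submitters' processing notes, Cell Ranger 5.0.1 was used with hg38, and no other setting is stated in the sources used. Samples were grouped by the day in their labels.

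Barcodes below 1000 genes or above 20% mitochondrial UMIs were dropped, and then the highest Scrublet scores (0.8% per 1000 barcodes), because the tool's own threshold marked 3, 1 and 1 cells and had not worked. Median depths were 41595, 15642 and 19227 UMIs per kept cell at days 1, 2 and 3. Classes were made from cells thinned to 5000 UMIs, which left out 34, 482 and 129 cells. A class needed 50 cells, and 1 UMI made a cell positive. A class of cells with a marker's UMI is not a cell type, and cells are not replicates.

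Members and gene lists were chosen with earlier results of these data known. Named were all 9 members, the genes with the 3 highest and 3 lowest day 3 over day 1 ratios at the tested level in each list, any further gene of the Hippo-YAP lists, and the 3 genes most like each member. One gene of 2 of the lists is not reported here and was left out of them. Alternatives covered scaling (TMM from edgeR 4.0.16, median of ratios), filters, doublets, depth, random draw, fold and minimum level. The ratio method was tested on simulated data. Sequences came from RefSeq and positions from GENCODE 44. The software was Python 3.11.15, scipy 1.17.1 and scanpy 1.11.5.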

Additional observations from a re-analysis of the deposited data

Results flagged for a closer look

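CCN1 was lower in TFAP2A-positive than in TFAP2A-negative cells at day 1, with a ratio of 0.540 from 14 UMIs in 184 positive cells, and higher at day 3, with a ratio of 2.96 from 26 UMIs in 216 positive cells. The difference between the days was not tested. At day 1 the levels were 15.2 CPM in TFAP2A-positive and 28.2 in TFAP2A-negative cells, and at day 3 they were 24.1 and 8.14 CPM. At day 2 the ratio was 0.856 and was not called. The summed level of 9 listed amnion markers other than TFAP2A was 78.3 CPM in positive and 31.2 in negative cells at day 1, and 852.8 and 547.5 CPM at day 3. These sums include HAND1, called higher at day 1 and not called at day 3. HAND1 alone had 448.6 CPM in the whole day 3 library. Streak genes summed to 117.4 CPM in positive and 39.5 in negative cells at day 1, with 4 higher, and to 390.7 and 578.9 CPM at day 3, with 3 lower. SRF and actin genes summed to 1874 and 2094 CPM at day 1, with 0 called, and to 1854 and 872 CPM at day 3, with TAGLN, MYL9 and TPM1 higher. The part of these genes and of other cell types in this difference was not tested.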

How the results depend on the processing

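No paired analysis was possible because each day has 1 library and no replicate. In 504 comparisons of a member's main call with an alternative, 35 calls changed. Of these, 0 turned to the opposite direction, and no ratio called in the main setting reversed. CCN1 in HAND1-positive over HAND1-negative cells at day 3 was not called in the main setting. It was called lower at 10000 UMIs (0.643) and without thinning (0.612), and higher among cells with no LHX1 UMI (1.57). Causes were not tested unless given. With TMM and median-of-ratios scaling, CCN1 at day 3 over day 1 was 0.254 and 0.260, CCN2 was 0.298 and 0.305, and ANKRD1 was 11.2 and 11.4. Without ribosomal protein and mitochondrial genes in the total, CCN1 was 0.293 and CCN2 0.344, and without early-gene cells, an alternative chosen after seeing the data, CCN1 was 0.287, CCN2 0.396 and ANKRD1 12.0. At day 2 over day 1, the 5 members called higher became 3 with a fold of 2, with a minimum of 10 CPM and with either scaling, and the 0 called lower became 1 with either scaling.

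In HAND1-positive over HAND1-negative cells at day 2, the 2 members called lower became 1 without thinning, without SOX2-positive cells, with a second draw, among cells with no LHX1 UMI and with levels from all UMIs, and 0 among MESP1-positive cells. At day 3 the 1 called lower became 2 at 10000 UMIs, 2 without thinning and 0 among cells with no LHX1 UMI. For ANKRD1 at day 3 the ratio was 1.29 at 10000 UMIs, 1.24 with a second draw, 1.44 without TFAP2A or ISL1 cells and 3.30 among cells with no LHX1 UMI. For AMOT it was 1.71 without TFAP2A or ISL1 cells and 3.97 among cells with no LHX1 UMI. For HAND1 alone over LHX1 alone, ANKRD1 was 12.0 with at least 2 UMIs of each marker and 6.43 with a second draw. The alternatives on LHX1, on TFAP2A or ISL1 and on levels from all UMIs were chosen after seeing the data. The share of cells with a UMI moved with depth in all 54 alternative values, as thinning to another depth changes detection. Depth limits AMOT most at day 1, where the thinned cells held 29 of its UMIs.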
